A study of Rattus norvegicus with 10 samples.

Results

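The genes described here are 8 genes known for excitatory neurons of the cerebral cortex and hippocampus: *Slc17a7*, *Nrgn*, *Nptx1*, *Neurod6*, *Neurod2*, *Tbr1*, *Emx1* and *Lamp5*. Members were taken as the rows of the deposited table whose gene name equals one of these symbols. In total, 7 of the 8 had a row among the 12828 genes of the table, and the level of *Emx1*, which had none, was not analysed here. The 8 genes were chosen on earlier results of the diet comparison in these same libraries, so that nothing below is independent support for a difference between the diets.

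The libraries were made from the arcuate nucleus (ARC) of 10 Wistar rat dams, with 5 dams in the 5X-FA group and 5 in the 5X-MTHF group. FA is folic acid and MTHF is 5-methyltetrahydrofolate, the reduced form of the vitamin, and both were given at 5 times (5X) the recommended level during pregnancy only. All dams were in their first pregnancy and tissue was taken at parturition in both groups. The ARC was cut out free hand from a frozen coronal slice, with the third ventricle as the guide, and RNA from the whole piece was sequenced after poly-A selection.

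The question the study put to these libraries was how the 2 diets differ in their effect on gene expression. That question is not answered here for these genes. The 10 columns of per-sample values carry names that match no label of a dam, and were not used. The authors' own comparison of the diets fills a further 4 columns, which were not used either. What remains is 1 value per gene, the authors' average log2 CPM over all libraries, where CPM is the read count of a gene scaled to library size. It has no SD, and it does not show the depth of the single libraries. No value per dam, no difference between diets and no test is therefore reported.

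Excitatory neurons release glutamate, which vesicular transporters load into synaptic vesicles. In the forebrain these transporters divide the territory: *Slc17a7* (VGLUT1) is the form of cortex and hippocampus, whereas *Slc17a6* (VGLUT2) is the form of thalamus and hypothalamus. The identity of cortical excitatory neurons is set in development by transcription factors that include *Emx1*, *Tbr1*, *Neurod2* and *Neurod6*. The ARC is better known for peptide neurons such as those of *Pomc* and *Agrp*.

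The promoters of the members are shown first, because the transcription factors among them belong to a class of proteins with well-described recognition letters. NEUROD proteins are basic helix-loop-helix factors that bind E-boxes, and homeodomain factors such as EMX1 bind AT-rich cores. The sequences are those of RefSeq on GRCr8, a later build than the Rnor_6.0 used for the reads, and 7 of the 8 symbols matched an entry, *Nptx1* being the exception. Each run holds the 250 bases before the annotated start of the gene, 5′ to 3′ on the gene's own strand. Capitals mark CAGATG on either strand in the first 3 sequences and TAATTA in the last. Only promoters that hold the marked letters are printed, and those of *Slc17a7*, *Lamp5* and *Emx1* hold neither. *Neurod6* lies at chr4:86180156-86180405, minus strand, *Neurod2* at chr10:83824278-83824527, minus strand, *Nrgn* at chr8:45452418-45452667, minus strand and *Tbr1* at chr3:66759553-66759802, plus strand.
Neurod6: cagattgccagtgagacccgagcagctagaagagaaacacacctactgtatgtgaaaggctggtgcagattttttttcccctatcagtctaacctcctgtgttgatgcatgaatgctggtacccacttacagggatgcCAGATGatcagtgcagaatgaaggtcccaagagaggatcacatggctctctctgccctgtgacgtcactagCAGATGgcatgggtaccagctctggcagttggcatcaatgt
Neurod2: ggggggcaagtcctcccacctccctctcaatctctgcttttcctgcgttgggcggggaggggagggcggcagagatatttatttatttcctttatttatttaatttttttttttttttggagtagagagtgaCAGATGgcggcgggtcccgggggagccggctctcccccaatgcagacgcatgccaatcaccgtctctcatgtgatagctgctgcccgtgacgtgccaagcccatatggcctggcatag
Nrgn: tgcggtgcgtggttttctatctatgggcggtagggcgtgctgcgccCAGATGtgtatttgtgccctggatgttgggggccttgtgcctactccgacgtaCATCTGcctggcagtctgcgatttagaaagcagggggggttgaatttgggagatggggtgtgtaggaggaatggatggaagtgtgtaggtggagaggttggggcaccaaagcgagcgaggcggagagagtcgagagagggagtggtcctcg
Tbr1: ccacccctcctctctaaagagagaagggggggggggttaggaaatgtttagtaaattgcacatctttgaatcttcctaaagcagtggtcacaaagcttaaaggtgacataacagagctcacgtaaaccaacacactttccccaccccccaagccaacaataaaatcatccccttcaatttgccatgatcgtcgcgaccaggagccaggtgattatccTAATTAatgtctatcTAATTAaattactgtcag

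The E-box CAGATG, searched on both strands, was found in 3 of the 7 promoters, those of *Neurod6*, *Neurod2* and *Nrgn*. It occurs in 14.0% of all 33469 RefSeq windows of that length and in 9.07% of the 10623 windows whose gene has a row in the table. *Neurod6* holds it at 112 to 107 and at 41 to 36 bases before the start, and *Nrgn* at 204 to 199 and at 151 to 146, the latter on the opposite strand. *Neurod2* holds it once, at 118 to 113. The looser E-box CANNTG, which includes CAGATG, was in 6 of the 7, in 65.5% of all windows and in 56.5% of those of genes with a row.

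TAATTA, a core of homeodomain sites that reads the same on both strands, was found only in *Tbr1* among the 7, at 33 to 28 and at 18 to 13 bases before the start. Of all windows, 4.86% hold it and 0.368% hold it at 2 or more places, and of those of genes with a row 2.10% hold it. TGACGT, part of the cAMP response element, was found on either strand in *Neurod6* and *Neurod2*, in 6.95% of all windows and in 10.2% of those of genes with a row. TATAAA was found in 0 of the 7, in 12.9% of all windows and in 6.38% of those of genes with a row. GGGCGG was in 4 of the 7, in 30.5% of all windows and in 57.8% of those of genes with a row. CCAAT was in 3 of the 7, in 34.0% of all windows and in 34.6% of those of genes with a row. All were searched on both strands. These matches describe letters and not binding, and the members searched were chosen with earlier results known.

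In base composition the promoters ranged widely. Among the 7, the ratio of observed to expected CpG was lowest in *Neurod6* (0.128) and *Lamp5* (0.149), followed by *Tbr1* (0.340), *Slc17a7* (0.445), *Emx1* (0.473) and *Neurod2* (0.605), and was highest in *Nrgn* (0.774). The median was 0.383 over all windows and 0.736 over those of genes with a row in the table. Of the 7, which include *Emx1* with no row, 3 lay below the former median and 6 below the latter. The GC content ran from 44.0% in *Tbr1* to 64.0% in *Emx1*, with a median of 51.2% over all windows and 60.4% over those of genes with a row.

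**Figure D1:**
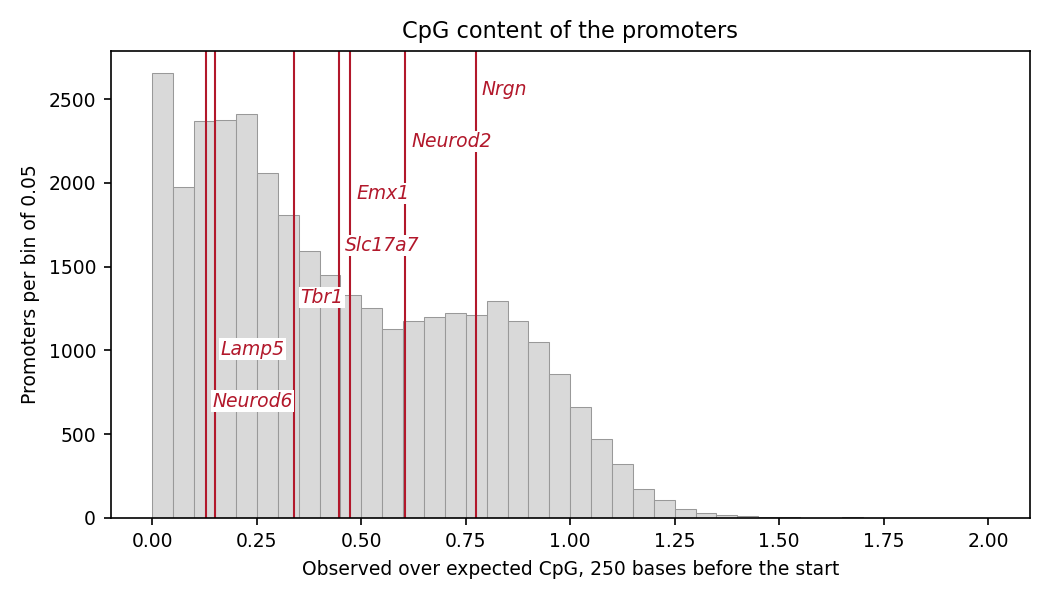
Histogram of the ratio of observed to expected CpG (horizontal axis, no unit) in the 250 bases before the start of each of 33469 RefSeq genes of GRCr8, with the number of promoters per bin on the vertical axis. Red lines mark the 7 promoters of the excitatory neuron genes that have an entry, from *Neurod6* at 0.128 to *Nrgn* at 0.774.

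Reads of the synaptic members were plentiful in these ARC libraries, and reads of the transcription factors were few. Over the 7 members with a row, the averages summed to 546 CPM, of which *Nrgn*, *Nptx1* and *Slc17a7* made up 88.8% and *Tbr1*, *Neurod6* and *Neurod2* 3.62%. Across all genes of the table the median was 4.94 on the log2 CPM scale, the lowest 25% of genes ended at 3.65 and the highest 25% began at 6.18. By this scale 3 members stood in the highest 25%, 3 in the lowest 25% and *Lamp5* between them. CPM is not corrected for transcript length, so a longer transcript takes more reads, and the places given here order genes by reads and not by numbers of transcripts. In a bulk sample such as this, fewer cells of a type and less RNA per cell cannot be told apart. Which cells gave the reads of a member was not tested, and no member is taken here as restricted to cortex and hippocampus.

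**Figure D2:**
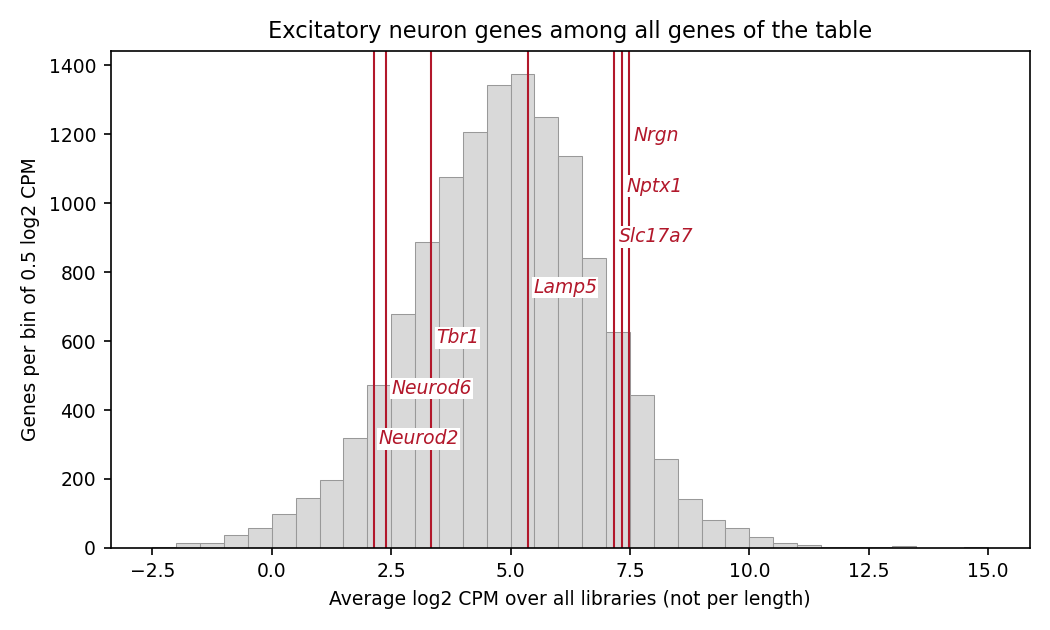
Histogram of the authors' average log2 CPM of 12828 genes (horizontal axis), with the number of genes per bin on the vertical axis. Red lines mark the 7 excitatory neuron genes with a row, of which *Slc17a7*, *Nptx1* and *Nrgn* lie close together between 7.17 and 7.48 and the transcription factors lie at or below 3.34.

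*Slc17a7* (ENSRNOG00000020650) loads glutamate into the synaptic vesicles of cortical and hippocampal neurons. It lies on chromosome 1 of Rnor_6.0 from 101161252 to 101173174, and its average was 7.17 log2 CPM, or 144 CPM, above 88.9% of the genes in the table. Its relatives were both in the table. *Slc17a6*, the transporter of hypothalamic and thalamic glutamate neurons, averaged 8.09 log2 CPM (272 CPM), and *Slc17a8* (VGLUT3), found in scattered neurons that often use a second transmitter, averaged 2.64 log2 CPM (6.25 CPM). *Slc17a7* and *Slc17a6* thus both stood among the highest 25% of genes by reads in tissue labelled ARC.

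*Nrgn* (ENSRNOG00000010688; neurogranin) encodes a small postsynaptic protein that binds calmodulin when calcium is low and releases it when calcium rises. It lies on chromosome 8 from 40015049 to 40023193, and its average of 7.48 log2 CPM (178 CPM) took the largest share of reads among the 7 members. Of the calmodulin genes it works with, *Calm2* and *Calm3* averaged 8.81 and 9.30 log2 CPM. They encode the same protein and are active in most cells. *Camk2a*, the calmodulin-dependent kinase abundant at forebrain excitatory synapses, averaged 8.44 log2 CPM (347 CPM).

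*Nptx1* (ENSRNOG00000003741; neuronal pentraxin 1) encodes a secreted protein that gathers AMPA-type glutamate receptors at synapses. It lies on chromosome 10 from 108682638 to 108691367, and its average was 7.34 log2 CPM (162 CPM), above 90.5% of the genes. The other pentraxins of this system had rows too. *Nptx2*, whose expression follows neuronal activity, averaged 5.87 log2 CPM, and *Nptxr*, the membrane-bound pentraxin receptor, averaged 8.85 log2 CPM. Reads of all 3 pentraxin genes were therefore above the table's median.

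*Lamp5* (ENSRNOG00000005457) encodes a brain member of the lysosome-associated membrane protein family that is placed in neurites, and in cortex it marks particular neurons, interneurons among them. It lies on chromosome 3 from 129018592 to 129031521, with an average of 5.37 log2 CPM (41.4 CPM), above 58.9% of the genes. *Lamp1* and *Lamp2*, which sit in the lysosomes of nearly all cells, averaged 8.82 and 7.17 log2 CPM.

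The transcription factors were near the lower end of the table. *Tbr1* (ENSRNOG00000005049), a T-box factor of deep-layer cortical neurons, lies on chromosome 3 from 47677720 to 47685902 and averaged 3.34 log2 CPM (10.1 CPM), above 20.4% of the genes. *Neurod6* (ENSRNOG00000026055), on chromosome 4 from 85911861 to 85915099, is a helix-loop-helix factor of differentiated cortical and hippocampal neurons and averaged 2.40 log2 CPM (5.27 CPM). Its relative *Neurod2* (ENSRNOG00000028417), on chromosome 10 from 86280892 to 86282693, averaged 2.13 log2 CPM (4.38 CPM), above 7.66% of the genes, or above 4.95% with genes under a log2 CPM of 1 left out.

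The table lists *Neurod2* as a pseudogene, the only member not given as protein-coding, and its gene model spans only 1802 bases. How much of the transcript this model covers was not tested. The nearest relatives of these factors were unevenly represented. *Emx2*, the homeobox gene paired with *Emx1*, averaged 2.24 log2 CPM (4.72 CPM), whereas *Neurod1* and *Eomes*, the T-box gene of cortical progenitors, had no row. A gene without a row has no level here and is not shown to be silent.

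The members are spread over 5 chromosomes in Rnor_6.0, with *Tbr1* and *Lamp5* both on chromosome 3 and *Nptx1* and *Neurod2* both on chromosome 10. None of the 7 gene models overlaps another row of the table, and genes without a row were not examined for overlap. The nearest rows were *Psmd14* at 4382 bases from *Tbr1* and *Pih1d1* at 4447 bases from *Slc17a7*. *Neurod6* stood most alone, with its nearest row, *Adcyap1r1*, 200165 bases away. The row nearest to *Neurod2*, at 21034 bases, was *Ppp1r1b* (DARPP-32), the phosphatase inhibitor of striatal projection neurons, which averaged 7.07 log2 CPM.

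Most other genes known for cortical and hippocampal excitatory neurons also had rows. From a list of 54 such genes, 44 were in the table (81.5%), with a median of 5.34 log2 CPM against 4.94 for all genes and 5.37 for the 7 members. Of the 44, 12 lay in the highest 25% of the table and 7 in the lowest 25%. *Nptxr*, *Camk2a* and *Chn1*, which encodes a Rac-regulating protein of neurons, took the most reads, and *Chn1* averaged 8.43 log2 CPM. Some of these genes are used by other neurons as well. *Bcl11b* and *Foxp2*, both also known from striatum and named here after their values were seen, averaged 5.38 and 5.18 log2 CPM. Those without a row included *Neurod1*, *Eomes*, *Rasgrf2*, *Cplx3*, *Fibcd1*, *Spink8*, *Lhx9*, *Dkkl1* and *Sv2b*.

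Most markers of the labelled tissue had a row, but most of those lay below the median of all genes. Of 13 genes of ARC neurons, 12 had a row, with a median of 4.49 log2 CPM against 4.94 for all genes. Their summed average was 329 CPM. Of the 12, 4 lay above the median of the table and 4 in its lowest 25%. The ARC genes with the most reads were *Sst*, *Cartpt* and *Slc6a3*, at 6.35, 6.02 and 5.48 log2 CPM. The defining peptide genes *Pomc* and *Agrp* averaged 4.67 and 1.42 log2 CPM (25.4 and 2.67 CPM), *Kiss1* averaged 0.08 log2 CPM, and *Npy* had no row; these genes were named after their values were seen. Of 14 hypothalamic transcription factors, 11 had a row, with a median of 3.64 log2 CPM; *Sim1*, *Nkx2-1* and *Fezf1* were the highest at 4.54, 4.03 and 4.01 log2 CPM. *Tbr1* at 3.34 log2 CPM thus lay within the range of the hypothalamic factors, which ran from 0.08 to 4.54.

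Markers of neighbouring regions and of other cell types were read in the same libraries, and their part in the values of the 8 genes was not tested. All 10 striatal projection neuron genes had a row, with a median of 5.67 log2 CPM and a sum of 690 CPM, led by *Penk* at 7.68 log2 CPM and *Ppp1r1b*. All 7 thalamic genes had a row, with a median of 3.55 log2 CPM; *Slc17a6* alone made up 74.4% of their 366 CPM, followed by *Tcf7l2* and *Prkcd* at 5.28 and 4.79 log2 CPM. The GABAergic genes *Gad2*, *Gad1* and *Slc32a1* averaged 9.67, 8.79 and 7.40 log2 CPM, together 1426 CPM. Of 6 genes of cortical and hippocampal interneurons, 5 had a row, with *Calb2* at 7.43 and *Pvalb* at 4.40 log2 CPM. *Sst*, *Npy* and *Lhx6* of that list also stand in the hypothalamic lists.

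Of all lists, that of oligodendrocytes had the largest sum. All 6 of its genes had a row, and they summed to 13909 CPM, with *Mbp* and *Mobp* at 12.59 and 9.90 log2 CPM. The 6 astrocyte genes summed to 3647 CPM, led by *Aqp4*, *Slc1a3* and *Gfap* at 10.22, 9.73 and 9.62 log2 CPM. Microglial genes (5 of 6 with a row) had a median of 4.18 log2 CPM, with *Csf1r* at 6.82, *Cx3cr1* at 4.46 and *P2ry12* at 4.18. Endothelial genes (3 of 4) had a median of 6.27, with *Flt1* at 6.28, *Slco1a4* at 6.27 and *Cldn5* at 5.77.

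Few genes of the ventricle wall had a row. Of 5 genes of tanycytes and ependyma, cells that line the third ventricle beside the ARC, 2 had a row, *Ccdc153* at 3.10 and *Rax* at 0.08 log2 CPM. Choroid plexus genes had 3 of 4 rows, with *Ttr* at 3.06, *Clic6* at 2.82 and *Folr1* at 0.83 log2 CPM.

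**Figure D3:**
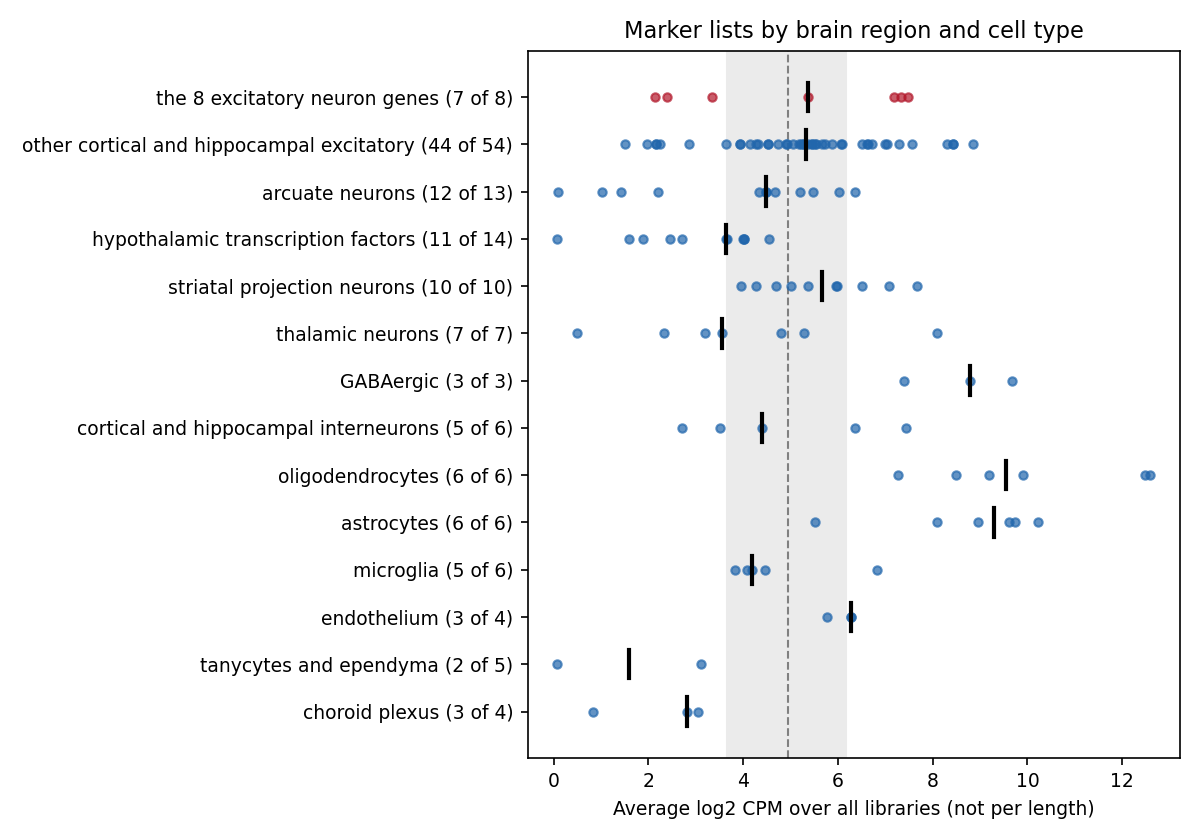
Authors' average log2 CPM (horizontal axis) of each gene with a row, by marker list (vertical axis, with the number of listed genes that had a row); points are genes and black bars are list medians. The dashed line marks the median of all genes at 4.94 and the grey band the range from 3.65 to 6.18; the 7 excitatory neuron genes, in red, include 3 from 2.13 to 3.34, *Lamp5* at 5.37 and 3 from 7.17 to 7.48.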

How the data were processed

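Per the labels, the submitters' processing notes and the methods of the study, strand-specific poly-A libraries of 10 dams (5 per diet) were trimmed with Trim Galore 0.5.0, aligned with STAR 2.6.0c to Rnor_6.0 with Ensembl gene models and counted with HTSeq 0.6.1p2. The authors deposited 1 table of 12828 genes, 12383 of them protein-coding. The methods name a minimal filter on reads per gene; whether it set these rows is not given in the sources used here. The value used was the average log2 CPM over all libraries that the authors deposited for each gene. Its powers of 2 sum to 1002152 over the rows, which fixes the base of the logarithm, and it is not corrected for length. The tool that made it is not given in the sources used here.

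A further 10 per-sample columns hold FPKM, a value scaled to length and library size. Their names match no label and they were not used. The authors' comparison (fold change, F statistic, p-value and FDR, 4 columns) was not used. The tests fixed for values per dam were therefore not run. Levels are given with the percentage of genes of lower value. Percentages and motif searches were tested on simulated data. Promoters are RefSeq windows of GRCr8, cut to the 250 bases before the start. RefSeq symbols and older symbols were searched for listed genes without a row, and none was found under another name. Named genes are the 8 members, their partners by role, the 3 genes with the highest value of each list, the nearest rows of some members, and listed genes that had no row or stand in several lists; any other is said to be named after its values were seen. Some genes that this rule selects are not reported here. The members and lists were chosen with earlier results of these data known. The calculations were done with pandas 2.3.3 and numpy 2.4.6 in Python 3.11.15, intervals with scipy 1.17.1 (exact binomial), and the plots with matplotlib 3.10.9.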

Additional observations from a re-analysis of the deposited data

How the results depend on the processing

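Each value is an average over libraries. The methods state 1 approximate depth for all samples, but the values used do not show that of each library. They carry no spread between dams and no correction for length, so that their precision is not known. The settings tried here were chosen after seeing the data. The median of the 7 members lay above 58.9% of all genes. Among protein-coding genes alone it lay above 57.8%, and with genes under a log2 CPM of 1 left out, above 57.7%. Counting the 22 repeated gene names once gave 58.8%. Over 21 places (single members, their median and the other lists), 14 moved by more than their 95% binomial interval under each of these first settings. All of these moved downward, since these settings remove genes mostly from the lower end of the table. The median of the 7 members is the value of *Lamp5*, so that the same place is counted under both names. The place that moved most was that of *Neurod2*, which fell by 2.71 percentage points, from 7.66% to 4.95%, with genes under a log2 CPM of 1 left out. With repeated names counted once, all 21 stayed within that interval. The interval treats the genes of the table as independent draws. It serves only as a yardstick for the size of a move and measures no spread between dams. Other pseudocounts, a filter on FPKM, leaving out a dam, centring, a fit without trend and count tests were not run. They need per-sample values, and the per-sample columns were not used. The scale per length was fixed as the main one, and the scale without length was used in its place. No paired analysis was possible because no column used carries a replicate number and no test was run.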
